A study of Mus musculus with 4 samples.

Results

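Rad21 peaks were read across a 3.5 Mb window of mouse chromosome 15 that holds Myc, the long non-coding RNA gene Pvt1 and a distal enhancer domain. The window was set with earlier results of these data known. Within it, members were chosen by position alone (mm9, positions counted from 1). Every peak lying fully between 60500000 and 64000000 in any of 4 deposited peak lists was taken. This gave 114 of 92937 peaks, which merged into 39 of 34743 regions where peaks touched or overlapped by at least 1 bp. No peak crossed a window end. The positions of the genes are approximate ones from background knowledge (Myc at about 61816000 to 61822000, Pvt1 ending near 62.1 Mb, the distal cluster centred near 63.5 Mb), because no mm9 annotation was used here. In RefSeq's GRCm38.p6 gene table, used for order only, the protein-coding genes around Myc and Pvt1 are Lratd2 and A1bg on the near side, then Gsdmc, Gsdmc2, Gsdmc3, Gsdmc4, Cyrib and Asap1 on the far side.

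Myc encodes a transcription factor that drives cell growth and division, and it is a frequent oncogene of B lineage tumours. Its promoter lies beside a site for CTCF, the DNA-binding protein at which moving cohesin rings stop, and this site can hold the gene near its enhancers. Pvt1 begins downstream of Myc and carries enhancers and a promoter of its own. Much farther out, a cluster of enhancers active in blood stem and progenitor cells reaches Myc across a region poor in coding genes. Rad21 is the kleisin subunit that closes the cohesin ring, so its chromatin immunoprecipitation with sequencing (ChIP-seq) marks places where cohesin is held.

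The libraries came from mouse pro-B cell lines transformed by v-Abl, the kinase of Abelson virus, all RAG1 deficient and all carrying the Emu-Bcl2 transgene, whose name gives the immunoglobulin heavy chain enhancer as its driver. The 2 WT libraries had no further change and the other 2 carried a 53BP1 knockout (53BP1 is a repair factor recruited to chromatin around double-strand breaks). All cells had been exposed for 4 days to 3 uM STI-571, an Abl kinase inhibitor that arrests such lines, so every value here is from treated cells. The labels do not say how many clones the libraries represent, and peak lists hold no expression with which to check the cell type, the level of Myc or the loss of 53BP1. The treatment field names a 53BP1 antibody while titles and protocol name Rad21, and the libraries are called Rad21 libraries after the latter. Lists held 21971 and 23029 peaks (WT) against 25145 and 22792 (knockout), and their read depth is unknown. The second knockout list was the weakest: peaks with a −log10 q of 5 or more made up 16.5% of it, against 25.9% to 27.7% of the others.

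Across the window Rad21 sites were unevenly placed. The stretch was divided into an upstream flank, a Myc promoter side (from 100 kb before Myc to its end), Pvt1, a long intergenic stretch between, the distal cluster (100 kb to either side of its centre) and a far flank. Peaks were dense at the distal cluster, with a mean of 3.12 per 100 kb over the 4 libraries. They were also dense on the Myc promoter side, at 2.36 per 100 kb, and in the far flank, at 2.00 per 100 kb, which held the most peaks of the 6 stretches (32 over the 4 lists). They were sparse in Pvt1 (0.450 per 100 kb), between (0.519) and in the upstream flank (0.308). Whole lists averaged 0.833 and 0.873 peaks per 100 kb in WT and 0.953 and 0.864 in knockout libraries.

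**Figure D1:**
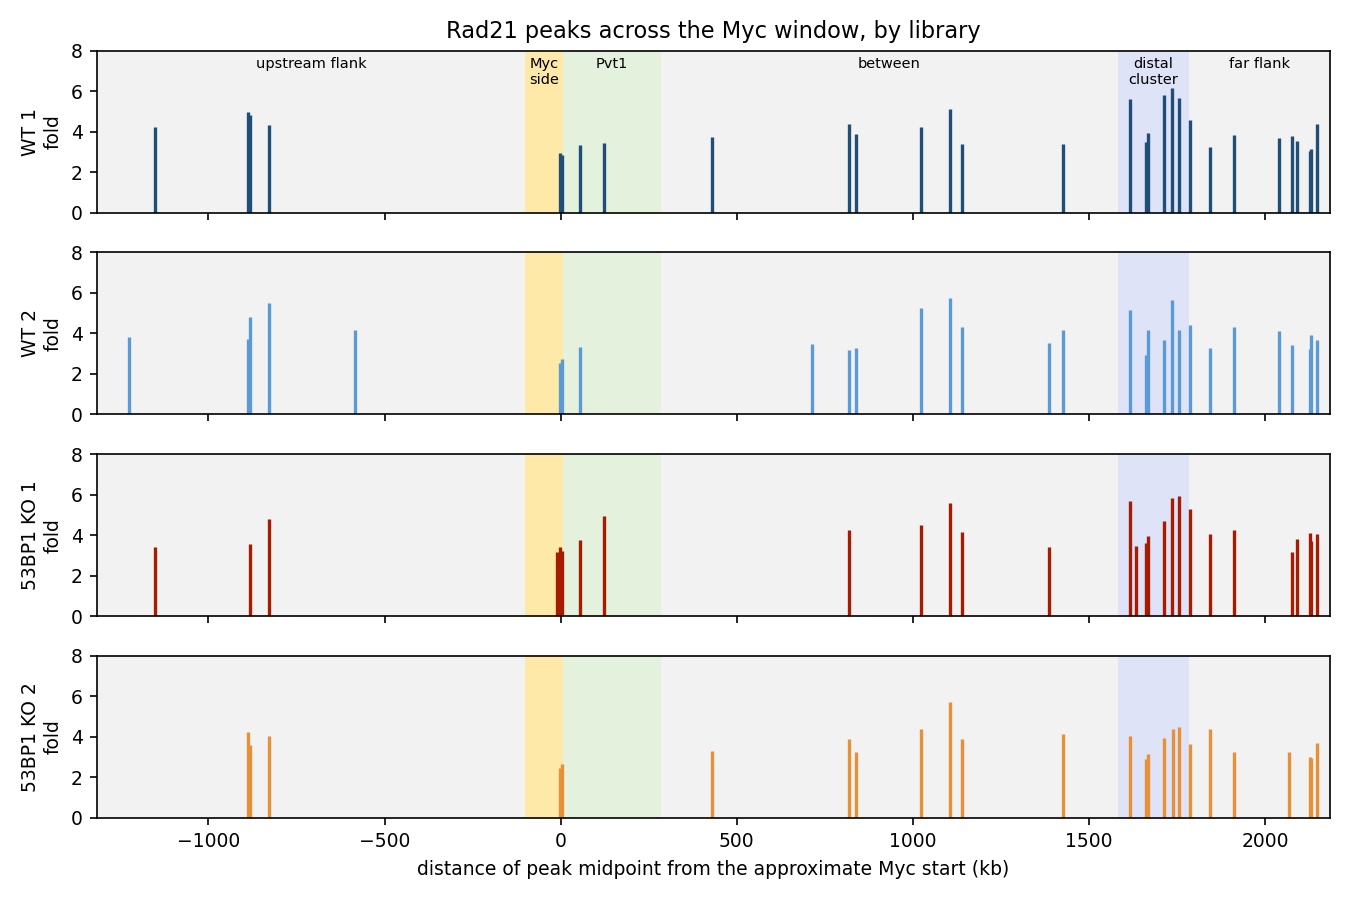
Rad21 peaks across the window in each library; the horizontal axis is the distance of the peak midpoint from the approximate Myc start in kb, the vertical axis the peak's fold enrichment as the authors' caller gave it, and shading marks the 6 stretches. The distal cluster shows a dense group of peaks in every library, while the peaks at Myc have low folds, with a wide empty stretch before them and a few peaks in Pvt1 after them.

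Window totals were then set against genotype. The WT libraries contained 31 and 30 of these peaks, the knockout libraries 28 and 25. Both knockout counts thus lay below both WT counts, although the knockout lists were on average longer. Means were 30.5 ± 0.707 in WT and 26.5 ± 2.12 in knockout libraries (SD, n = 2 each), a difference of −4 peaks (two-sided exact permutation p = 0.333, the lowest p that 2 against 2 libraries allow). Knockout minus WT was −3 for replicate 1 and −5 for replicate 2, whose libraries share a prefix in their peak names. Among 743 windows of the same length laid end to end over the chromosomes, 31 (4.17%) had both knockout counts below both WT counts. As a share of the list the window took 0.141% and 0.130% of peaks (WT) against 0.111% and 0.110% (knockout), an order found in 18.4% of such windows. Without the second knockout library the difference in peak number was −2.5, and it was −1 when a −log10 q of 5 or more was required. Under that limit the counts were 6 and 7 (WT) against 5 and 6 (knockout), so the genotypes no longer separated.

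Covered length did not follow peak number. Peaks covered 16.2 and 16.1 kb of the window in WT and 14.9 and 18.1 kb in knockout libraries, so the knockout libraries gave both the lowest and the highest value. The difference was 0.355 kb (exact permutation p = 1). It became −1.22 kb without the second knockout library and 1.93 kb without the first, and 2.11 kb with the window ends moved in by 500 kb. The median peak width of the second knockout library here was 548 bp, against 445 and 462 bp in WT and 418 bp in the first knockout library.

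**Figure D2:**
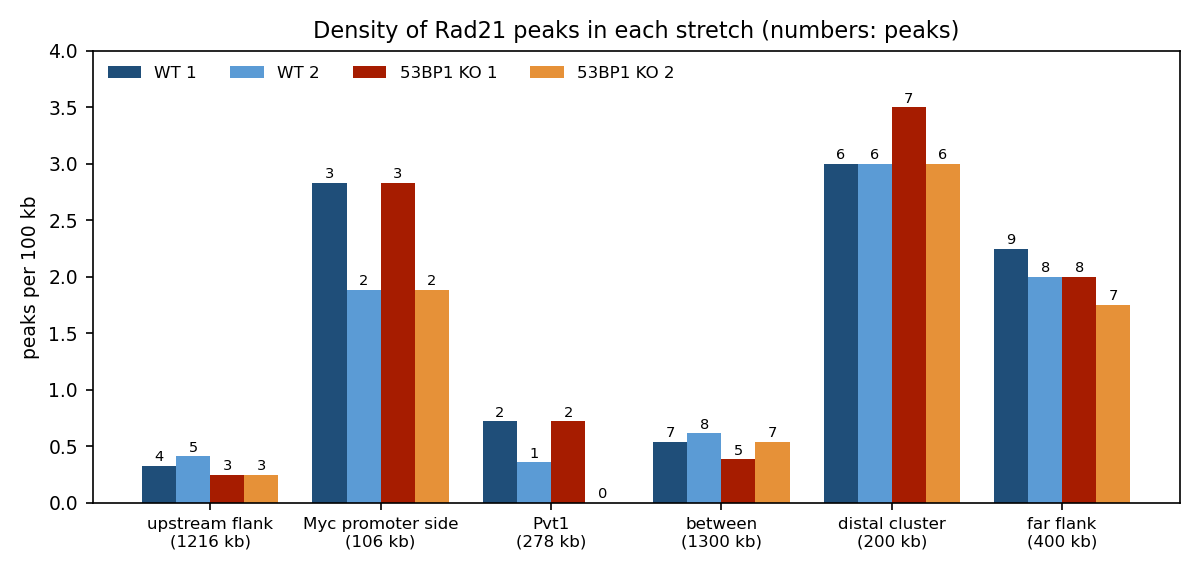
Peaks per 100 kb in each stretch and library, with the number of peaks printed over each bar and the stretch length in kb under its name. The distal cluster has 6 or 7 peaks in every library, and Pvt1 has 0 to 2.

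At Myc itself, Rad21 was called in every library at a pair of sites. The first lay just before the gene, in a region at 61814661 to 61815235 whose midpoint is at −1.05 kb from the approximate Myc start. Its folds, which are the authors' own values as are all folds here, were 2.94 and 2.56 (WT) against 3.42 and 2.45 (knockout). The knockout values lay above and below both WT values, so the genotypes overlapped. The −log10 q was 2.94 and 1.87 (WT) against 4.49 and 2.2 (knockout), again overlapping. Peaks here were 335 and 468 bp wide (WT) against 315 and 341 bp (knockout), each below the median width of its own list.

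The other site lay inside the gene, in a region at 61818217 to 61819725 with its midpoint at 2.97 kb. Folds were 2.86 and 2.76 (WT) against 3.24 and 2.65 (knockout), overlapping between genotypes. Widths did not overlap: 911 and 396 bp (WT) against 1449 and 1393 bp (knockout). Both knockout widths exceeded both WT widths at 18.1% of the 14484 regions called in all libraries, and the opposite held at 15.2%. In the window the first was true of 4 of 19 such regions and the second of 2 of 19, both near those shares. Which exon or intron the region covers was not determined here, since the gene position is approximate.

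A further pair of regions near Myc was each called in a single library. A peak at 61816414 to 61817279, near the start of the gene, was called in WT replicate 1 alone (fold 2.72, −log10 q 2.21). A peak at 61806333 to 61806929, at −9.37 kb, was called in knockout replicate 1 alone (fold 3.18, −log10 q 1.11). Together the promoter side held 3 and 2 peaks (WT) against 3 and 2 (knockout), all of them within 10 kb of Myc. The rest of the 100 kb before Myc had no peak in any list.

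**Figure D3:**
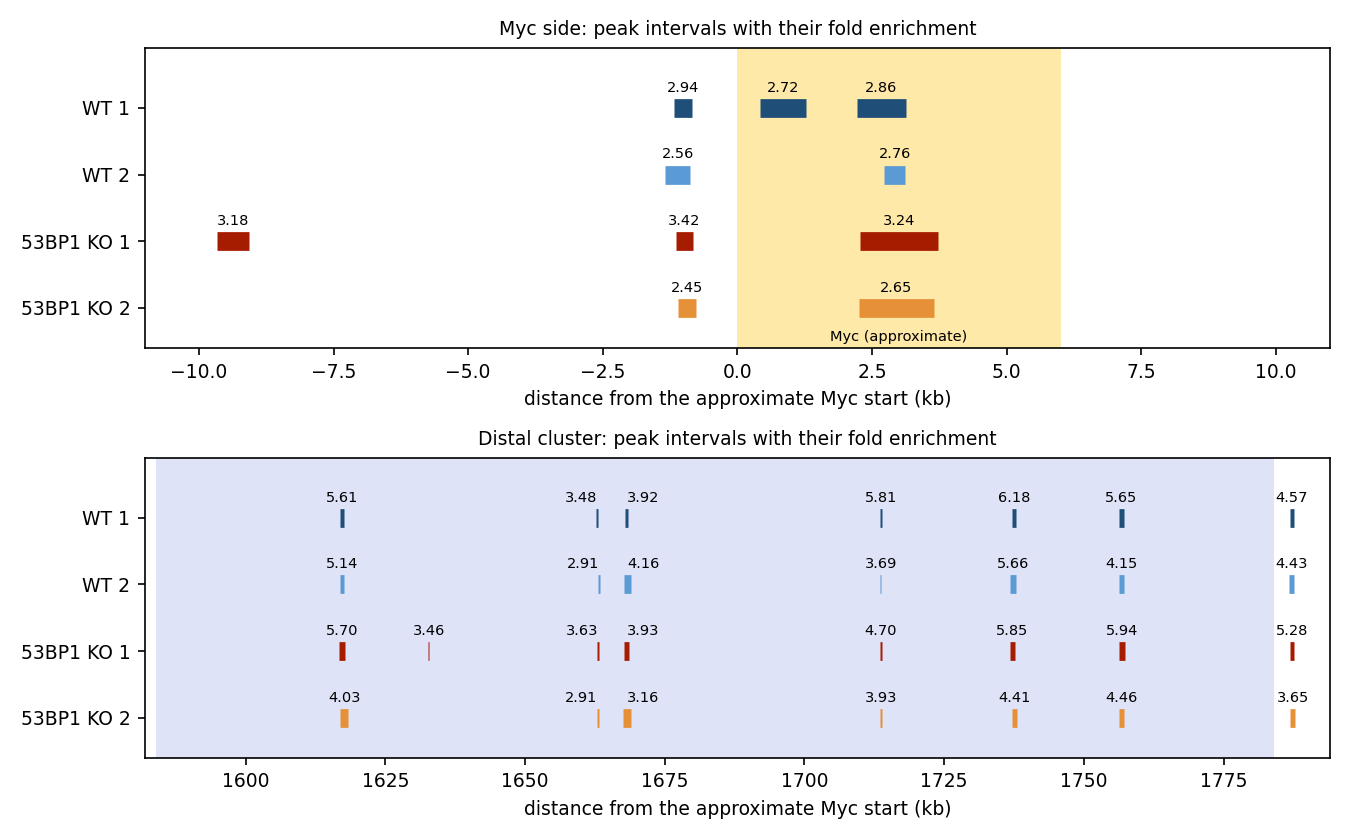
Peak intervals near Myc (upper panel) and over the distal cluster (lower panel) in each library, drawn to scale against the distance from the approximate Myc start in kb, with each peak's fold printed above it. Both Myc regions line up over the 4 libraries. So do the shared cluster regions, except the one at 63478771 to 63479334, where the WT peaks do not overlap each other. Folds are lower at Myc (2.45 to 3.42) than at most cluster peaks.

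The peaks at Myc ranked low in their lists by fold, and higher by −log10 q. Of the 10 peaks within 10 kb of Myc, 9 lay under the 10th percentile of fold in their own list, with a median percentile of 1.05. By −log10 q the median percentile of the same 10 peaks was 36.0, with a range from 0.835 to 69.6. In 9 of 10 the percentile of q exceeded that of fold. At fold percentiles this low most q percentiles would lie above, so that count says little by itself. For comparison, peaks in the lowest 10 percent of fold in each whole list had median q percentiles of 7.7 and 7.82 (WT) against 5.00 and 19.3 (knockout). Most peaks at Myc lay near the bottom of that group by fold, and peaks with folds equally low were not compared separately. In each of WT replicates 1 and 2 and knockout replicate 2, all peaks near Myc had lower folds than any other peak of the window. In knockout replicate 1 the site before Myc reached 3.42 and the site inside the gene 3.24. Both lay above that library's lowest fold elsewhere in the window, 3.18. None of the 10 peaks reached a −log10 q of 5.

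**Figure D4:**
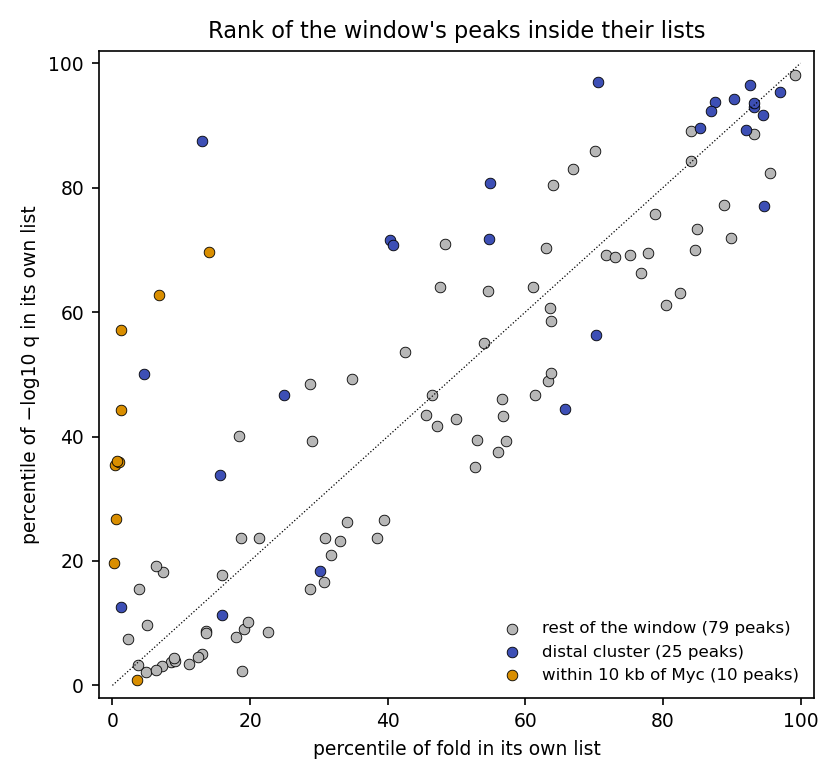
Percentile of fold (horizontal) against percentile of −log10 q (vertical) for each of the 114 peaks of the window, both ranked inside the peak's own list; the dotted line marks equal ranks. Peaks within 10 kb of Myc sit at the left edge, where little room lies below the line, and 9 of 10 are above it. Distal cluster peaks have median percentiles of 70.2 (fold) and 80.7 (q), but spread widely, with 2 of 25 below the 10th percentile of fold.

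In Pvt1, the non-coding gene that follows Myc, Rad21 was thinly placed and no region was called in every library. A region at 61870119 to 61870707, 54.4 kb from the Myc start, was called in both WT libraries (folds 3.32 and 3.31) and in knockout replicate 1 (3.75). A second region at 61938098 to 61938534, at 122.3 kb, was called in WT replicate 1 (fold 3.43, −log10 q 1.43) and more strongly in knockout replicate 1 (4.95 and 4.16). The Pvt1 stretch held 2 and 1 peaks (WT) against 2 and 0 (knockout). The absence in knockout replicate 2 was thus not shared by the other knockout library, and that list was also the weakest.

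Myc stood between wide gaps in the sites called in all 4 libraries. From its intragenic region, the next region called in all 4 libraries began 814 kb farther along, at 62634167, past the whole of Pvt1. On the other side 825 kb separated the site before Myc from the closest upstream region of all libraries, at 60988872 to 60989437. Over the chromosomes, 4.07% of the 14464 gaps between neighbouring shared regions were as wide as 814 kb, and the median gap was 60.0 kb. Counting every call of any library, the empty stretch before Myc was 574 kb and the longest one after it 306 kb, from 61938534 to 62244836.

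Between Pvt1 and the cluster lie 1300 kb in which the WT libraries held 7 and 8 peaks and the knockout libraries 5 and 7. Of 9 regions there, 4 were called in all libraries. The strongest, at 62920677 to 62921230 (1105 kb from Myc), had folds of 5.11 and 5.76 (WT) against 5.59 and 5.70 (knockout). It was among the strong sites of every list, at fold percentiles of 84.9 and 95.5 (WT) against 88.9 and 99.2 (knockout), with overlapping genotypes. The site at 62837954 to 62838423 followed, with folds of 4.25 and 5.26 (WT) against 4.50 and 4.36 (knockout). The other shared sites were 62954270 to 62955621, with folds from 3.42 to 4.30, and 62634167 to 62634747, with folds from 3.18 to 4.39.

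Peak numbers at the distal cluster overlapped between genotypes. Each WT library had 6 peaks there and the knockout libraries 7 and 6. Of its 7 regions 6 were called in all 4 lists (85.7%), the highest share of the 6 stretches. Among them, the region at 63478771 to 63479334 joined WT peaks that did not overlap each other. For comparison, 41.7% of all 34743 regions, and 19 of 39 in the window, were called in every list. Of 13181 windows of 200 kb laid over the chromosomes, 2.08% held 6 or more such shared regions. The only other region, at 63448691 to 63448894, was called in knockout replicate 1 alone (fold 3.46, −log10 q 1.5).

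The cluster opened with a region at 63432674 to 63434293, 1617 kb from the Myc start. Its folds were 5.61 and 5.14 (WT) against 5.70 and 4.03 (knockout). The −log10 q values, 10.6 and 9.04 (WT) against 9.62 and 8.46 (knockout), were high in all 4 lists and included the highest of the window. Widths were 736 and 833 bp (WT) against 1063 and 1397 bp (knockout), without overlap, the order given above for 18.1% of shared regions.

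A close pair of regions followed. The first, at 63478771 to 63479334, was weak, with folds of 3.48 and 2.91 (WT) against 3.63 and 2.91 (knockout). Its WT peaks, at 63478771 to 63479079 and 63479139 to 63479334, were joined only through the knockout peaks. Its partner at 63483585 to 63484963, 4.25 kb beyond, had folds of 3.92 and 4.16 (WT) against 3.93 and 3.16 (knockout). Its −log10 q of 4.76 and 6.08 (WT) against 4.72 and 5.56 (knockout) was higher than that of the weak neighbour in every list, whose values ran from 1.63 to 2.83.

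The second part of the cluster held its highest folds. The region at 63529456 to 63529853 varied most between libraries, with folds of 5.81 and 3.69 (WT) against 4.70 and 3.93 (knockout). The spread between the WT libraries here exceeded that between the knockout libraries. The region at 63552835 to 63554011, 1737 kb from the Myc start, had folds of 6.18 and 5.66 (WT) against 5.85 and 4.41 (knockout), at percentiles of 85.4 to 97.1 of their own lists. The fold of 6.18 was the highest of the window. The last, at 63572233 to 63573325, had 5.65 and 4.15 (WT) against 5.94 and 4.46 (knockout), so the first library of each genotype was high and the second low.

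Within the cluster the strength of calls stood above that at Myc. Of the 24 peaks in the window with a −log10 q of at least 5, 14 lay in the cluster: 4 and 3 (WT) against 3 and 4 (knockout). They made up 66.7% and 50% of the cluster's peaks (WT) and 42.9% and 66.7% (knockout). In whole lists the shares were 27.0% and 27.7% (WT) and 25.9% and 16.5% (knockout). Cluster peaks were also wider than the rest of the window. Their medians were 608 and 889 bp (WT) and 776 and 940 bp (knockout), against 388, 427, 417 and 520 bp in that rest. Whole lists had medians of 512 and 509 bp (WT) and 476 and 564 bp (knockout). For regions called in all 4 libraries over all chromosomes, medians were 594 bp in both WT libraries and 568 and 656 bp (knockout). The 608 bp of WT replicate 1 was close to that value. The second knockout library gave the lowest fold at 4 of the 6 shared cluster regions, as it did at 10 of the 19 shared regions of the window, and its whole list had the lowest median fold, 3.67 against 4.06 to 4.15. The part of this lower scale in the folds above was not tested.

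Just past the cluster's set limit, the first region of the far flank at 63602734 to 63603865 had folds of 4.57 and 4.43 (WT) against 5.28 and 3.65 (knockout). The far flank held 9 and 8 peaks (WT) against 8 and 7 (knockout), and 5 of its 11 regions were called in all lists. Ranked by the lowest within-list percentile of fold, the region at 63602734 was followed by 63963546 to 63964122 (folds 3.67 to 4.40) and by 63726948 to 63728095 (3.24 to 4.33). A region at 63659343 to 63661018 was wide in WT, at 1168 and 1584 bp, and narrow in knockout libraries, at 421 and 342 bp. Its folds ran the other way, at 3.26 in both WT libraries against 4.08 and 4.39 (knockout), as did its −log10 q, at 1.29 in both WT libraries against 2.59 and 3.76 (knockout). The fifth, at 63947048 to 63947630, had folds from 2.93 to 3.91.

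The upstream flank, 1216 kb long, held 4 and 5 peaks in WT and 3 in each knockout library. Its shared regions were 60988872 to 60989437, with folds of 4.34 and 5.52 (WT) against 4.80 and 4.05 (knockout), and 60933669 to 60934446. At the latter the WT folds, 4.81 and 4.79, both lay above the knockout folds, 3.56 and 3.61. This order was found at 1 of the 19 shared regions of the window and at 18.3% of those of all chromosomes. The reverse order was also found at 1 of 19, the far flank region at 63659343 described above, and at 8.68% over all chromosomes. Folds belong to each list's own scale, so these orders are descriptions and not a measured loss or gain of binding.

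Few sites of the window followed genotype. A single region, at 63855334 to 63855705 in the far flank, was called in both WT libraries and neither knockout library, with folds of 3.71 and 4.12 and −log10 q of 1.82 and 2.67. Over all chromosomes 2.19% of regions had this pattern. The reverse, both knockout libraries and neither WT library, was found in 0 of 39 regions here and in 3.05% of all regions. Of the 6 window regions called in exactly 3 libraries, all 6 lacked a knockout library: 4 lacked replicate 1 and 2 lacked replicate 2. Over all chromosomes the missing library was a knockout in 59.2% of 4713 such regions. The 8 regions of a single library were 4 from WT and 4 from knockout lists. Over all chromosomes such regions were more frequent in knockout lists, at 1597 and 2104 (WT) against 3786 and 3171 (knockout). Single regions are given as values without a test, since an exact permutation test of 2 against 2 libraries cannot give a p below 0.333.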

How the data were processed

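Rad21 ChIP-seq peak lists of 4 libraries (2 WT, 2 53BP1 knockout; groups from the sample titles) were used. Per the submitters' processing notes, the build was mm9 and the tools were MACS2 2.2.7.1, deepTools 3.5.1, Bowtie2 2.4.4 and SAMtools 1.15.1. Settings and use of an input control: not given in the sources used here. Lists have 9 columns and are 1 per library, so calls were not pooled. The deposited fold is a ratio of peak signal to background by the authors' caller. Per peak the authors also deposited −log10 p, −log10 q and a score, which was found to be 10 times that −log10 q to within 1 unit. Depth is unknown, so a shallower library may list fewer or weaker peaks.

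Peaks on chromosomes 1 to 19 and X were kept, peaks fully inside the window were counted by midpoint per stretch, and peaks of all lists were merged (Python 3.11.15, pandas 2.3.3). Group means were compared by a two-sided exact permutation test over 6 arrangements. Merging and the test were checked on made-up peaks. Nothing in the labels says whether libraries of a genotype are separate cultures, so the spread may be technical. Whether replicate numbers pair the libraries is not known. Differences in peak number between numbers 1 and 2 correlated at 0.034 between genotypes over 2302 windows of 1 Mb. This cannot decide the question, since libraries handled in pairs need not share differences in peak number at that scale. Regions were named by rule: all within 10 kb of Myc, all shared ones of the promoter side, Pvt1 and cluster, those following genotype, and up to 5 of each other stretch by lowest fold percentile; further regions of a single library or of Pvt1 were named after their values were seen. The window and stretches were chosen with earlier results of these data known. The RefSeq promoter table had no entry for Myc or Pvt1, and no sequence is printed. Alternatives were a −log10 q of at least 5, a fold of at least 4, lists of equal length, other window and overlap limits, a replicate block, leaving out each library and, chosen after seeing the data, counts scaled to list length.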

Additional observations from a re-analysis of the deposited data

How the results depend on the processing

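The lower peak number of the knockout libraries kept its sign under all 10 alternatives: −1 at a −log10 q of at least 5, −1.5 at a fold of at least 4, −2 with window ends moved in by 500 kb, −5 with lists of equal length, −5.85 when scaled to list length, and −5.5 to −2.5 leaving out a library. In the replicate block it was −4 (exact permutation p = 0.5), which equals the unpaired difference by construction. At a −log10 q of at least 5 the counts were 6 and 7 (WT) against 5 and 6 (knockout; exact permutation p = 0.667). The genotypes thus overlapped there, as they did at a fold of at least 4. Covered length turned from 0.355 to −0.449 kb at a fold of at least 4, −1.16 kb with equal lists, −0.576 kb when scaled, and −1.22 to 1.93 kb leaving out a library; it was 2.11 kb with window ends moved in by 500 kb. Of the 19 regions called in all libraries, 3 were left at a −log10 q of at least 5, 6 at a fold of at least 4 and 9 where peaks had to cover 50% of the region, since fewer peaks qualify. Regions of WT only numbered 0, 1 and 2 under the same limits, 2 with equal lists and 2 to 5 leaving out a library. Regions of the knockout only numbered 1 at a fold of at least 4 and 0 to 3 leaving out a library. Leaving out a library loosens both classes by definition, since a single call or absence then stands for that genotype. Recomputed knockout minus WT differences in peak number per stretch moved by over 1 SD, pooled within genotypes, in 5 of 54 cases. The peak numbers themselves fell much more. At a −log10 q of at least 5, those of the 4 lists went from 114 to 24 in the window. In the far flank they went from 32 to 3. No limit of depth can be given, as the lists hold no read counts.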
